A study of Mus musculus with 2 samples.

Results

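Myoc-high fibroblasts of the Achilles tendon enthesis are described here. They were cells in which Myoc made up at least 0.1% of all UMIs (unique transcript molecules) and the collagen genes Col1a1, Col1a2 and Col3a1 together at least 0.5%. A cell also had at most 1 UMI of the leukocyte gene Ptprc, fewer than 2 UMIs of Pi16 and Dpp4, less than 0.1% of UMIs from the tendon genes Thbs4, Comp and Tnmd, and no UMI of the lining gene Clic5. The rule found 86 cells among the 25430 that had 300 genes or more and no more than 20% mitochondrial UMIs. Of these, 83 came from the tail suspension library and 3 from the non-tail suspension library. Cells were chosen by their values of Myoc, the collagens and the gating genes, so those values describe the choice and test nothing.

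The study dissected the Achilles tendon enthesis, where tendon inserts into bone, from SKG mice, a Zap70 mutant strain prone to autoimmune arthritis. One group was kept without tail suspension and the other under tail suspension, in which the hindlimbs bear no load. Each group is 1 library of collagenase-digested cells on the 10x Genomics droplet platform. Both groups are SKG mice, with no wild-type group. The sources used here do not give the animals' age, any induction of arthritis, the duration of suspension or how many animals went into a library. The libraries held 11430 and 15545 barcodes, and kept cells had median depths of 4758 UMIs without and 8508 with suspension. Fibroblasts went the other way and were deeper without suspension, as given below. With 1 library a group there is no test between groups, and cells are not replicates. All intervals are exact 95% intervals and cover counting error only, and levels are CPM, a gene's UMIs summed over the cells of a group and scaled to a common total.

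Myoc encodes myocilin, a secreted olfactomedin-domain glycoprotein best known from the trabecular meshwork of the eye and also made by fibroblasts of tendon, nerve sheath and other dense connective tissue. Sfrp4 is a secreted Wnt antagonist, Angptl7 a secreted angiopoietin-like protein found in cornea and other collagen-rich tissue, Aspn (asporin) a small leucine-rich proteoglycan that binds collagen, and Fndc1 a fibronectin type III domain protein. Small leucine-rich proteoglycans sit on collagen fibrils and help set their diameter and spacing. The name Myoc Sfrp4 fibroblast held in part. Dcn (decorin), a fibroblast gene that the rule did not use, was at 17268 CPM in tail suspension members and 7395 in Myoc-low fibroblasts. Sfrp4 was found in 26 of the 83 tail suspension members and Angptl7 in 27.

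Promoter sequences are shown for Myoc, for Angptl7, and for the neighbouring proteoglycan genes Aspn, Ogn and Ecm2, because these 3 lie in one cluster, with Omd, on chromosome 13 and were all at least 2-fold higher in the members than in Myoc-low fibroblasts. Each is 300 bases from RefSeq on GRCm38.p6, from 250 bases before the transcription start to 50 after it, read 5′ to 3′ on the gene's strand. Of the 5 label genes 4 had an entry in the table, the other being Sfrp4. Capitals mark TATAAA and CATTCC on either strand (TTTATA and GGAATG when reversed). The core letters of the TATA box are TATAAA, and TEAD factors recognise CATTCC.
Myoc promoter (chr1:162638900-162639199, plus strand): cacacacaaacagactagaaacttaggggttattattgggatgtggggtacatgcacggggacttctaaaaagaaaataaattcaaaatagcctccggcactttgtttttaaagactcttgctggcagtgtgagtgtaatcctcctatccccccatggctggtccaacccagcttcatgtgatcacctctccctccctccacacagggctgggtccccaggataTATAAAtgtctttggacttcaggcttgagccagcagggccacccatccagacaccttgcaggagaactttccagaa
Angptl7 promoter (chr4:148500413-148500712, minus strand): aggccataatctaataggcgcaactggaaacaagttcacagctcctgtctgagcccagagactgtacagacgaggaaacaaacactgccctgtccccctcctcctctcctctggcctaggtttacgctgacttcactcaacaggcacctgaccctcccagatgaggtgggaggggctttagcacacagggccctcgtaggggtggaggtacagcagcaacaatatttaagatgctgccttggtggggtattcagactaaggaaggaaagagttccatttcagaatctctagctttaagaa
Aspn promoter (chr13:49544193-49544492, plus strand): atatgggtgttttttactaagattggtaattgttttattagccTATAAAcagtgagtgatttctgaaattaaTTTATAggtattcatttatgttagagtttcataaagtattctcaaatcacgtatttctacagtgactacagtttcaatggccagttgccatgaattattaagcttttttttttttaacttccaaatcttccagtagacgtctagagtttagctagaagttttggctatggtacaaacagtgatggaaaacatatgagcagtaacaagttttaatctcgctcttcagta
Ogn promoter (chr13:49607765-49608064, plus strand): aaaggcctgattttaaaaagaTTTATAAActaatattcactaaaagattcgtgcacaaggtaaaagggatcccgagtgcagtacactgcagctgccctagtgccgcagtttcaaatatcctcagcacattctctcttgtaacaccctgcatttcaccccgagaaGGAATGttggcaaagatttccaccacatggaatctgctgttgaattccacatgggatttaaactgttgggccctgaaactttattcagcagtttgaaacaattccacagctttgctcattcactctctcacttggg
Ecm2 promoter (chr13:49504560-49504859, plus strand): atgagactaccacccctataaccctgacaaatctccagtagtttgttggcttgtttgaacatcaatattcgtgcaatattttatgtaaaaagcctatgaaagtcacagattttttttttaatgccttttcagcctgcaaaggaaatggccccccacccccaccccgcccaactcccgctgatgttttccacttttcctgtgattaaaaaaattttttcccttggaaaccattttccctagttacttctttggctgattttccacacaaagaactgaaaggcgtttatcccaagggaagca
In these windows TATAAA began 26 bases before the start of Myoc. It occurred in Aspn, 207 and 178 bases before the start, and in Ogn as overlapping matches on both strands, 229 and 227 bases before it. CATTCC occurred in Ogn, 86 bases before the start. No TATAAA lay in the windows of Angptl7 and Ecm2, and no match of one motif overlapped a match of the other. Over all 32851 promoter windows in the table, 13.6% held TATAAA and 14.7% held CATTCC. On GRCm38, Aspn spans chr13:49544443-49567565, Ecm2 chr13:49504810-49532789 and Ogn chr13:49608046-49624501. All 3 are on the plus strand inside the span of Cenpp on the minus strand, while Myoc (chr1:162639155-162649693) overlaps Myocos and Angptl7 (chr4:148495183-148500460) lies inside Mtor, both on the other strand. Whether the counting used strand is not given in the sources used here.

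The share of cells that met the rule differed between the libraries. Members were 0.573% (0.457 to 0.710) of kept cells with suspension and 0.0274% (0.00565 to 0.0801) without it. Among cells of the fibroblast gate, meaning the collagen and Ptprc limits alone, they were 83 of 5621 (1.48%, 1.18 to 1.83) and 3 of 1965 (0.153%, 0.0315 to 0.446). Both shares were therefore higher in the tail suspension library, beyond counting error. Myoc was also found more often there in Ptprc-positive cells (2 or more Ptprc UMIs), which should lack it. It had a UMI in 8.08% (7.36 to 8.84) of them with suspension and 1.60% (1.31 to 1.94) without. With each cell thinned to 2000 UMIs these were 3.25% and 0.875%. Kept cells outside the fibroblast gate with 0.1% Myoc or more numbered 299 and 19. The part of such stray Myoc in the shares was not tested.

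Most fibroblasts with Myoc at 0.1% or more were not members. With suspension 648 fibroblast-gate cells (11.5%, 10.7 to 12.4) reached that share of Myoc and without it 98 did (4.99%, 4.07 to 6.04). The rule kept 12.8% of them with suspension and 3.06% without. Pi16 or Dpp4 removed 374 and 82, the tendon genes 335 and 68, and Clic5 12 and 0, with overlaps. So the difference between libraries held for all Myoc-rich fibroblasts, at a smaller ratio than under the full rule.

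Depth moved with membership. The limits on Pi16, Dpp4 and Clic5 are in UMIs, and that on the tendon genes is a share of UMIs. Cells with 10000 UMIs or more passed these gates together less often than shallow cells. The part of each limit was not tested. Of tail suspension fibroblast-gate cells, 58.2% passed the gates other than Myoc at 500 to under 1000 UMIs and 13.5% at 10000 or more. Without suspension these shares were 54.1% and 16.2%. Deep cells made up more of the fibroblast gate without suspension, where 1703 of 1965 cells had 10000 UMIs or more. With suspension 3283 of 5621 did. The median depth was 4958 UMIs (547 to 21595) in tail suspension members, 9448 in the 565 Myoc-rich fibroblasts that the gates removed, and 5753 in the 1208 Myoc-low fibroblasts, which passed every gate but Myoc. Without suspension the median was 17038 UMIs in the 95 Myoc-rich fibroblasts that the gates removed and 28811 in the 379 Myoc-low fibroblasts. The part of depth in the shares, and in their difference between libraries, was not tested. Among the 83 members, 12 had a single Myoc UMI, 4 had 2, 67 had 3 or more and 41 had 10 or more. Of the 15 members under 1000 UMIs, 13 rested on 1 or 2 Myoc UMIs.

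The 3 non-tail suspension members can be given one by one. They held 1722, 7059 and 15133 UMIs, with 4, 17 and 27 Myoc UMIs. The first had 7 UMIs of Sfrp4, 3 of Angptl7 and none of Cxcl14, and 17.2% of its UMIs were mitochondrial. The second had no Sfrp4 or Angptl7 UMI and 34 of Cxcl14, and the third had 1, none and 47. All 3 had Aspn UMIs (1, 5 and 6) and Fndc1 UMIs (1, 5 and 10). One cell thus carried Sfrp4 with Angptl7 and the other two carried Cxcl14.

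Each of the 5 genes of the label was higher in some other fibroblast group than in the members. In tail suspension members Myoc was at 2515 CPM (2366 to 2671), against 28.2 in Myoc-low fibroblasts and 3395 in the Myoc-rich fibroblasts the gates removed. Sfrp4 was at 866 CPM (780 to 959), against 79.5 and 1408. Angptl7 was at 689 CPM (612 to 772), against 106 and 1798. The members thus stood well above Myoc-low fibroblasts and below the removed Myoc-rich cells for these genes. Fibroblasts with tendon genes had more Angptl7 (1926 CPM), Aspn (1257) and Fndc1 (737) than the members, which had 738 (659 to 825) of Aspn and 345 (292 to 406) of Fndc1. In that gate Sfrp4 was at 385 CPM and Myoc at 542. Sfrp4 was thus highest in the Myoc-rich cells that the gates removed, and Angptl7 and Aspn in the tendon gate.

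**Figure D1:**
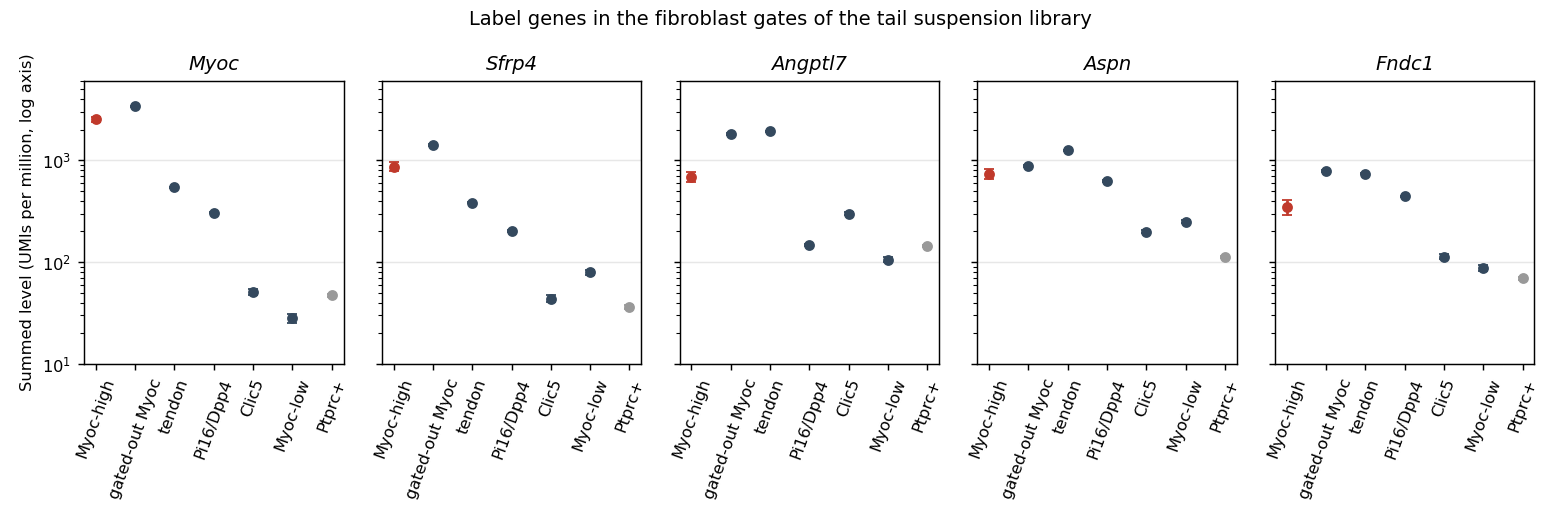
Summed level of each label gene (CPM, log axis) in 7 groups of cells of the tail suspension library, with exact 95% Poisson intervals, members in red and Ptprc-positive cells in grey. Members reach 2515 CPM of Myoc and 866 of Sfrp4, under the 3395 and 1408 of the Myoc-rich fibroblasts that the gates removed, and the tendon gate has the highest Angptl7 at 1926.

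To compare detection at equal depth, cells were thinned to 2000 UMIs, which left out 27 of the 83 members. Sfrp4 was then found in 30.4% of members (18.8 to 44.1), 11.2% of Myoc-low fibroblasts and 2.68% of Ptprc-positive cells, which should lack it. Without thinning the shares were 31.3%, 19.5% and 7.08%, at median depths of 4958, 5753 and 8376 UMIs. Aspn was in 55.4% of thinned members (41.5 to 68.7), 18.0% of Myoc-low fibroblasts and 6.07% of Ptprc-positive cells. These 2 markers were thus above both the Myoc-low cells and the level in leukocytes. Angptl7 was in 14 of the 56 (14.4% to 38.4%), against 9.82% and 6.35%, and Fndc1 in 37.5% (24.9 to 51.5) against 13.2% and 5.64%. In cells thinned to 1000 UMIs the intervals for Angptl7 overlapped, with 16.2% (8.36 to 27.1) of members against 8.41% (6.80 to 10.3) of Myoc-low fibroblasts. In the removed Myoc-rich fibroblasts, thinned in the same way, Sfrp4 was in 46.7%, Angptl7 in 42.9% and Fndc1 in 65.8%.

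A few members held much of the signal. The 5 highest members carried 76.6% of all Angptl7 UMIs, 56.6% of Sfrp4, 49.4% of Aspn and 32.2% of Fndc1, and 1 cell alone held 102 of the 291 Angptl7 UMIs. Of the 4 label genes other than Myoc, 21 members had none, 15 had 1, 24 had 2, 12 had 3 and 11 had all 4. The members with none were shallow, with a median of 726 UMIs, though 7 of them had 2000 UMIs or more.

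From cells without Myoc up to those just above the threshold, Igfbp3, Lpl and Prg4 differed mostly below it. Sfrp4 differed both below the threshold and across it. Of tail suspension cells that passed the other gates, 1047 had no Myoc, 118 had less than 0.05%, 43 lay just under the threshold at 0.05 to under 0.1% and 49 just above it at 0.1 to under 0.2%. Igfbp3, a binding protein of insulin-like growth factors, stood at 219 CPM in cells without Myoc, 850, 2552 just under the threshold and 2892 just above it. Lpl, lipoprotein lipase, went from 231 to 901, 1660 and 2244 CPM over the same bins. Both genes were close to their member level already below the threshold. Sfrp4 was at 67.0, 133, 342 (265 to 436) and 921 (803 to 1053) CPM. It was thus already higher below the threshold, and its largest step in CPM lay across it. The acute-phase gene Hp was at 7265, 3879, 591 (488 to 710) and 166 (118 to 227). It thus differed across the threshold too, but more below it. Prg4, which encodes the boundary lubricant lubricin, was at 41223, 17721, 3248 and 2790. In the 9 cells with 0.5% Myoc or more, Aspn reached 1337 CPM and Lpl was at 628.

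**Figure D2:**
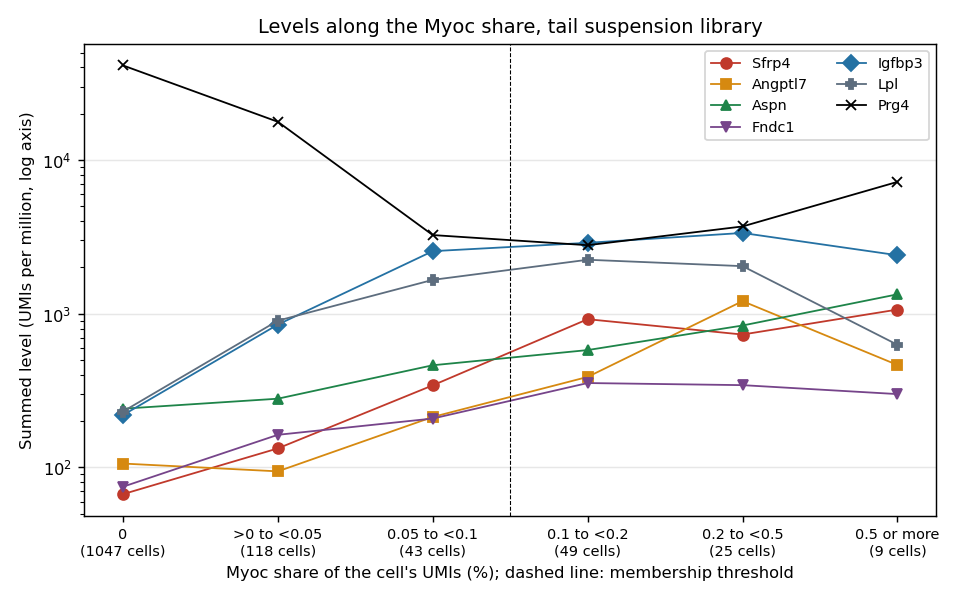
Summed levels (CPM, log axis) of 7 genes over tail suspension fibroblasts that passed the other gates, binned by the share of Myoc among the cell's UMIs, with the dashed line at the membership threshold of 0.1%. Igfbp3 and Lpl climb before the threshold, from 219 and 231 CPM to 2552 and 1660, while Prg4 drops from 41223 to 3248.

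Members differed among themselves in which secreted factors went with Myoc. The 56 tail suspension members with 2000 UMIs or more were divided, after their values were seen, into 16 with Sfrp4 plus Angptl7 at 0.1% of UMIs or more, 20 of the others with Cxcl14 at 0.1% or more, and 20 with neither. Cxcl14 is a chemokine made by many interstitial fibroblasts. One cell was over both thresholds and was counted with the first set. Median depths were 6938, 6968 and 7068 UMIs. Myoc, which chose the cells, summed to 2698, 2383 and 2517 CPM, with medians per cell of 2403, 1636 and 2186.

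In the Sfrp4 or Angptl7 cells several proteoglycan and growth factor binding genes were higher. Dkk2, a secreted Wnt antagonist, was at 871 CPM in them, 91.6 in the Cxcl14 cells and 172 in the rest. Aspn was at 1733, 268 and 592 CPM, and Igfbp3 at 6005, 1152 and 3161. Fmod (fibromodulin) was at 431, 85.1 and 37.5, Igfbp6 at 1799, 648 and 682, and Dcn (decorin) at 26258, 12960 and 16383. Each of these genes was highest in the Sfrp4 or Angptl7 cells, though single cells weighed heavily: 1 of the 16 held 28.6% of their Aspn UMIs and another 33.3% of their Dkk2 UMIs. Per cell, Igfbp3 ran from 0 to 21994 CPM in this set, with a median of 2677, against a median of 579 in the Cxcl14 cells, so the ranges overlapped.

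Summed levels of leukocyte-attracting chemokines were highest in the Cxcl14 cells. Ccl11, which attracts eosinophils, was at 1257 CPM in them and at 46.8 in the Sfrp4 or Angptl7 cells, with a UMI in 17 of 20 and 1 of 16 cells, and at 509 with a UMI in 11 of 20 cells of the rest. Ccl7 and Ccl2, ligands for monocyte receptors, were at 4962 and 2828 CPM against 365 and 150, and at 1303 and 1903 in the rest. Cxcl1, a neutrophil attractant, was at 6762 against 946 CPM, and at 2187 in the rest. These 3 differed in level more than in detection: Ccl7 had a UMI in 9 of 20 against 8 of 16 cells, Ccl2 in 11 against 8 and Cxcl1 in 13 against 11. The medians per cell were not highest in the Cxcl14 cells: for Ccl7 they were 0 CPM, against 61.4 in the Sfrp4 or Angptl7 cells and 116 in the rest, for Ccl2 219, 58.0 and 236, and for Cxcl1 414, 136 and 681. One of the 20 cells gave 48.6% of their Ccl2 UMIs, and 1 of the 16 gave 84.2% of their Cxcl1 UMIs. Basement membrane collagen Col4a1 was at 1460 against 347 CPM with a UMI in 18 of 20 cells. In the 20 members with neither signature, Igfbp5 stood at 3034 CPM, against 225 in the Sfrp4 or Angptl7 cells and 792 in the Cxcl14 cells, and Lpl at 2787 against 778 and 2546.

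Of 915 genes with enough UMIs, 49 (5.36%) were at least 2-fold higher in the Sfrp4 or Angptl7 cells and 84 (9.18%) in the Cxcl14 cells. All 8 measured chemokines were at least 2-fold higher in the Cxcl14 cells, 1 of them being Cxcl14, which chose the cells. Of 13 measured targets of IL-17, TNF and NF-kB signalling, a list that shares Ccl2, Ccl7 and other chemokines with the former, 11 were. These counts set the Cxcl14 cells against the Sfrp4 or Angptl7 cells only. In the members with neither signature Icam1 was at 330 CPM, near the 353 of the Cxcl14 cells, while Cxcl2 was at 112 against 1113. Of 9 small leucine-rich proteoglycans 6 were at least 2-fold higher in the Sfrp4 or Angptl7 cells, with a list median of 1.10 on the log2 scale against -0.07 over all 915 genes. The 5 fibrillar collagens did not differ by 2-fold (median -0.22), and of 5 basement membrane genes 1 was higher and 2 lower.

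**Figure D3:**
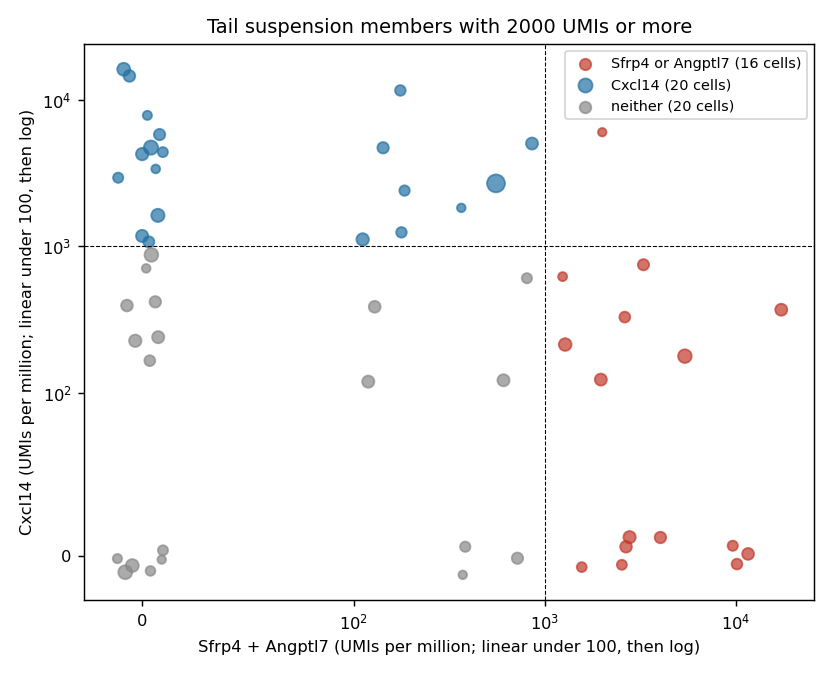
Each point is 1 of the 56 tail suspension members with 2000 UMIs or more, by Sfrp4 plus Angptl7 (horizontal) and Cxcl14 (vertical) in CPM on axes that are linear under 100 and logarithmic above, with points at 0 spread slightly and point area growing with depth. The dashed lines are at 0.1% of UMIs, and 1 cell lies over both of them, while the other 15 of the first set and the 20 Cxcl14 cells lie over one line each.

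Against Myoc-low fibroblasts, the members had higher levels of most small leucine-rich proteoglycans and of single genes such as Igfbp3 and Lpl, and lower levels of Slpi, Hp, Saa3 and Prg4. Of 11238 genes measured in both libraries, 336 (2.99%) were at least 2-fold higher in the members in both and 78 (0.694%) at least 2-fold lower. Median-of-ratios scaling gave 271 and 115. The non-tail suspension side rests on 3 cells and 23914 UMIs. There 1 UMI equals 41.8 CPM, enough to call many genes higher. A gene without a UMI was set to 3 UMIs, so a lower call needs a high level in Myoc-low fibroblasts. The counts of higher and lower genes therefore cannot be set against each other. In the tail suspension library alone, with 422639 member UMIs, 1340 of 12256 genes (10.9%) were higher and 1165 (9.51%) lower. The 7 markers of sheath or lining fibroblasts summed to 38204 CPM in the Myoc-low cells, 3767 in the members and 4979 in Ptprc-positive cells. Prg4 alone gave 37738 of the 38204, Clic5 and Crtac1 were at 0, and their part in the differences was not tested. Values below are log2 ratios within the tail suspension library unless stated.

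Igfbp3 and Lpl had the most UMIs of the higher genes named by the rule. Igfbp3 was at 3014 CPM in members and 333 in Myoc-low fibroblasts (log2 ratio 3.18, 3.09 to 3.27), and at 1422 and 10.2 CPM in the non-tail suspension library. Lpl was at 2030 and 336 CPM (2.60, 2.49 to 2.70), and at 1714 and 36.7 in the other library. Both were far apart in either library. Without suspension, however, 1 of the 3 members held 82.4% of the Igfbp3 UMIs and 75.6% of the Lpl UMIs. The paternally expressed gene Peg3 was at 263 and 35.4 CPM (2.89, 2.58 to 3.19), and the cell cycle inhibitor Cdkn1c, an imprinted gene too, at 182 and 32.1 (2.50). Ogn (osteoglycin) was at 646 and 100 CPM (2.69, 2.49 to 2.88) and Ecm2, an extracellular matrix protein with leucine-rich repeats, at 225 and 38.4 (2.55). The carboxypeptidase-like Cpxm2 stood at 3.50, from 26 member UMIs, and its non-tail suspension value rests on 3 UMIs in 1 cell. Others named by the same rule were the membrane protein Itm2a at 2.69, the fibril-associated collagen Col14a1 at 2.51, the Hedgehog coreceptor Boc at 2.38, Gpnmb at 2.33, the protease Pappa, which cleaves Igfbp4, at 2.25 and Ahnak2 at 2.21. In the non-tail suspension cells Gpnmb rested on 2 UMIs and Ahnak2 on 3, with intervals that included 0. Several of these genes were not particular to the members. Over the Myoc-rich fibroblasts that the gates removed, Ogn stood at 0.07, Cpxm2 at 0.10, Boc at -0.08 and Col14a1 at -0.48. Itm2a (0.52), Ecm2 (0.57), Cdkn1c (0.60) and Gpnmb (0.68) were under 2-fold. Igfbp3 (2.00), Peg3 (2.01), Lpl (2.28), Pappa (2.23) and Ahnak2 (1.02) were over it.

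The lower genes named by the rule varied in kind. Slpi, a secreted protease inhibitor, was at 104 CPM in members and 5104 in Myoc-low fibroblasts (-5.62, -6.08 to -5.19). Hp (haptoglobin) was at 151 and 6744 CPM (-5.48), Saa3, serum amyloid A, at 343 and 7071 (-4.37), and Spp1 (osteopontin) at 45.0 and 966 (-4.43). For these 4 genes the member level was under that in Ptprc-positive cells, which had 486, 745, 846 and 350 CPM. Prg4 was at 3497 CPM in members, 37738 in Myoc-low fibroblasts (-3.43, -3.51 to -3.36) and 4861 in Ptprc-positive cells, so the member level is no higher than in cells that should lack lubricin. The neutrophil chemokine Cxcl5 stood at -4.29, the growth factor Ereg at -4.16, the retinoid carrier Crabp2 at -3.86, Chl1 at -3.27 and the protease inhibitor Timp1 at -3.09. Ereg had no UMI in the 3 non-tail suspension members, so its fold there is a bound.

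**Figure D4:**
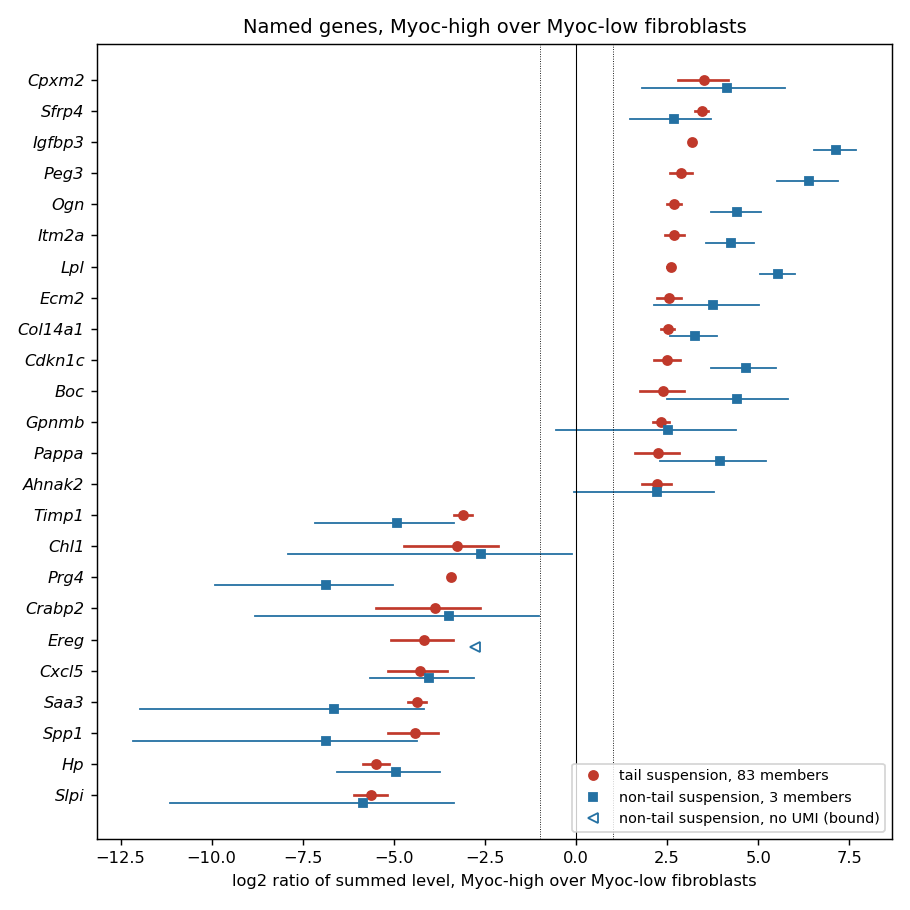
Log2 ratio of the summed level in members over Myoc-low fibroblasts for 24 named genes, with exact 95% intervals, for the tail suspension library (red, 83 members) and the non-tail suspension library (blue, 3 members), with dotted lines at 2-fold. The 14 higher genes drawn lie right of 2-fold in both libraries, and the non-tail suspension intervals are wide, with those of Gpnmb and Ahnak2 crossing 0.

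Some genes were higher in the members than in 4 other fibroblast groups of the library. The tendon, Pi16 or Dpp4 and Clic5 groups include the Myoc-rich fibroblasts that the gates removed. Of 2613 genes with at least 50 CPM in 10% of members, 82 (3.14%) were at least 2-fold above the Myoc-low, tendon, Pi16 or Dpp4 and Clic5 groups alike. Igfbp3 led them at 3014 CPM against at most 333 in those 4, and Lpl, at 2030, had at most 356 there. Dkk2 was at 308 CPM against at most 52.0, Abca8a, a lipid transporter of the ABC family, at 270 against at most 54.1, and the flavin monooxygenase Fmo1 at 78.1 against at most 16.6. Apoe, apolipoprotein E, was at 2560 against at most 1016, and the lipocalin Apod at 10158 against 3360, 4047, 3758 and 717. Of the 82 genes, 37 were also at least 2-fold above the Myoc-rich fibroblasts that the gates removed, and 3 (Sfrp4, Timp3 and Bmp4) were not above them at all. Those cells had 753 CPM of Igfbp3, 418 of Lpl, 203 of Dkk2 and 9640 of Apod. For Apod they were thus close to the members, while Igfbp3 and Lpl were well below.

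Gene groups are given by how many measured genes were at least 2-fold apart in the tail suspension library, where 10.9% of all genes were higher, 9.51% lower, and the median log2 ratio over all 12256 genes was 0.00. Of 15 small leucine-rich proteoglycans 10 were higher and none lower (median 1.56). Fmod was at 161 and 21.2 CPM, the collagen-binding Prelp at 267 and 77.9, Podn at 125 and 40.8, and Dcn, with most UMIs, at 17268 and 7395. Lum (lumican) at 1332 against 951 and Bgn (biglycan) at 1327 against 1970 did not reach 2-fold. Against all other fibroblasts together Fmod was lower in the members (-0.84), as the tendon gate had 915 CPM.

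Fibrillar collagens were not higher in the members. Counted among them are Col1a1, Col1a2 and Col3a1, whose limit in the rule both members and Myoc-low fibroblasts met, so their values test nothing. Of 10 fibrillar collagens none was higher and 2 lower (median -0.73), with Col3a1 at 5847 and 11172 CPM, Col1a1 at 3168 and 5213, Col1a2 at 5494 and 5832, and Col5a3 at 104 and 344. Of 12 fibril-associated and beaded collagens 2 were higher, Col14a1 at 648 and 114 CPM and Col8a2 on 5 UMIs, and 1 lower (median 0.38). Among 20 elastic fibre and microfibril genes 6 were higher and 8 lower: the microfibril genes Mfap2 (175 and 46.4 CPM) and Ltbp4 (393 and 112) were among the former, and Lox (577 and 1301), which cross-links collagen and elastin, and Eln (63.9 and 183) among the latter. Of 15 tendon transcription factor and matrix genes 8 were higher and 2 lower (median 1.01), among them Tnmd at 102 and 12.2 CPM and Comp at 187 and 92.7, both of which the rule limits, and 44.2% of the Tnmd UMIs came from 1 cell. Against all other fibroblasts together that median was -0.84.

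Extracellular regulators of Wnt, BMP and insulin-like growth factor signalling were often higher. Of 9 measured secreted Wnt modulators 5 were higher and 2 lower (median 1.21), with Dkk2 at 308 and 23.3 CPM and Sfrp2 at 468 and 138 beside Sfrp4. Of 19 Wnt ligands, receptors and targets 6 were higher and none lower, the ligand Wnt11 at 82.8 and 24.4 CPM and the ligand Wnt5a at 42.6 and 10.4. In the IGF axis 6 of 14 were higher and 2 lower: the ligand Igf1 was at 944 and 244 CPM and the binding protein Igfbp6 at 972 and 286, while Igfbp5 was at 1325 and 2855 and the protease Htra1 at 161 and 395. Opposite directions thus occurred among the binding proteins. Of 23 BMP genes 7 were higher and 2 lower, with the activin antagonist Fst (follistatin) at 471 and 110 CPM, Gdf10 at 192 and 62.1 and Bmp5 at 42.6 and 5.11, the latter on 18 UMIs.

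Complement, chemokine and lipid genes were mixed. Of 17 complement genes 5 were higher and 1 lower (median 0.75), with C3 at 1751 and 738 CPM and C4b at 615 and 190. Of 16 chemokines 3 were higher and 5 lower: Ccl8 stood at 398 and 125 CPM, Ccl11 at 651 and 253 and Ccl7 at 2342 and 1029, against Cxcl2 at 502 and 1409, and Cxcl14 at 1966 and 2082 hardly differed. Among 24 targets of IL-17, TNF and NF-kB signalling 2 were higher and 9 lower, with Icam1 at 270 and 115, the siderophore-binding Lcn2 at 523 and 2977, and Ptgs2, which makes prostaglandins, at 73.3 and 335. Of 22 lipid handling genes 8 were higher and 3 lower, among the latter Scd1, a fatty acid desaturase, at 130 and 891. In 19 genes known to respond to glucocorticoids, among which Myoc is counted in the eye, 3 were higher and 1 lower (median -0.10), with Tsc22d3 at 414 and 193 CPM.

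Proliferation, contractile and bone genes were lower in the members than in Myoc-low fibroblasts. The latter also held more markers of mural cells of the vessel wall, at 353 CPM against 63.9 in members. Osteoblast markers summed to 1142 against 66.3 CPM, and Spp1 alone gave 966 of the 1142. The part of such cells in these lists was not tested. In the Myoc-rich fibroblasts that the gates removed, Top2a was at 9.71 CPM and the tropomyosin Tpm2 at 9.18, against 83.6 and 103 in Myoc-low fibroblasts. None of 19 cell cycle genes was higher and 16 were lower (median -2.01), with the mitotic genes Top2a at 2.37 and 83.6 CPM and Mki67 at 4.73 and 48.7, that is on 1 and 2 member UMIs. Of 16 actin and contractile genes none was higher and 9 lower (median -1.36): Acta2 and Tagln, of smooth muscle and myofibroblasts, each had 1 UMI in the 83 members, and Tpm1 was at 52.1 and 182 CPM. Of 14 bone formation genes 1 was higher and 8 lower, with Enpp1, which makes pyrophosphate, at 16.6 and 188 CPM, and Ibsp and Bglap2, matrix proteins of bone, on 1 and 2 UMIs. Glycolysis and hypoxia genes were higher in 1 and lower in 8 of 20, with Gapdh at 355 and 849 CPM and Pkm at 187 and 547. Of 21 YAP/TAZ and strain targets 2 were higher and 6 lower, Ccn2 at 140 and 442 CPM and Ccn3 at 116 and 31.9.

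Broader lists leaned towards higher levels in the members. Of 26 growth factors and receptors 10 were higher and 1 lower (median 0.71), and of 29 fibroblast transcription factors 7 were higher and 1 lower (median 0.59), with Nfib at 989 and 326 CPM. Of 24 interferon-inducible genes 8 were higher and 4 lower (median 0.73), with Bst2 at 71.0 and 28.2. The lists not described had medians between -0.25 and 0.41 and are shown in the plot of gene lists.

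**Figure D5:**
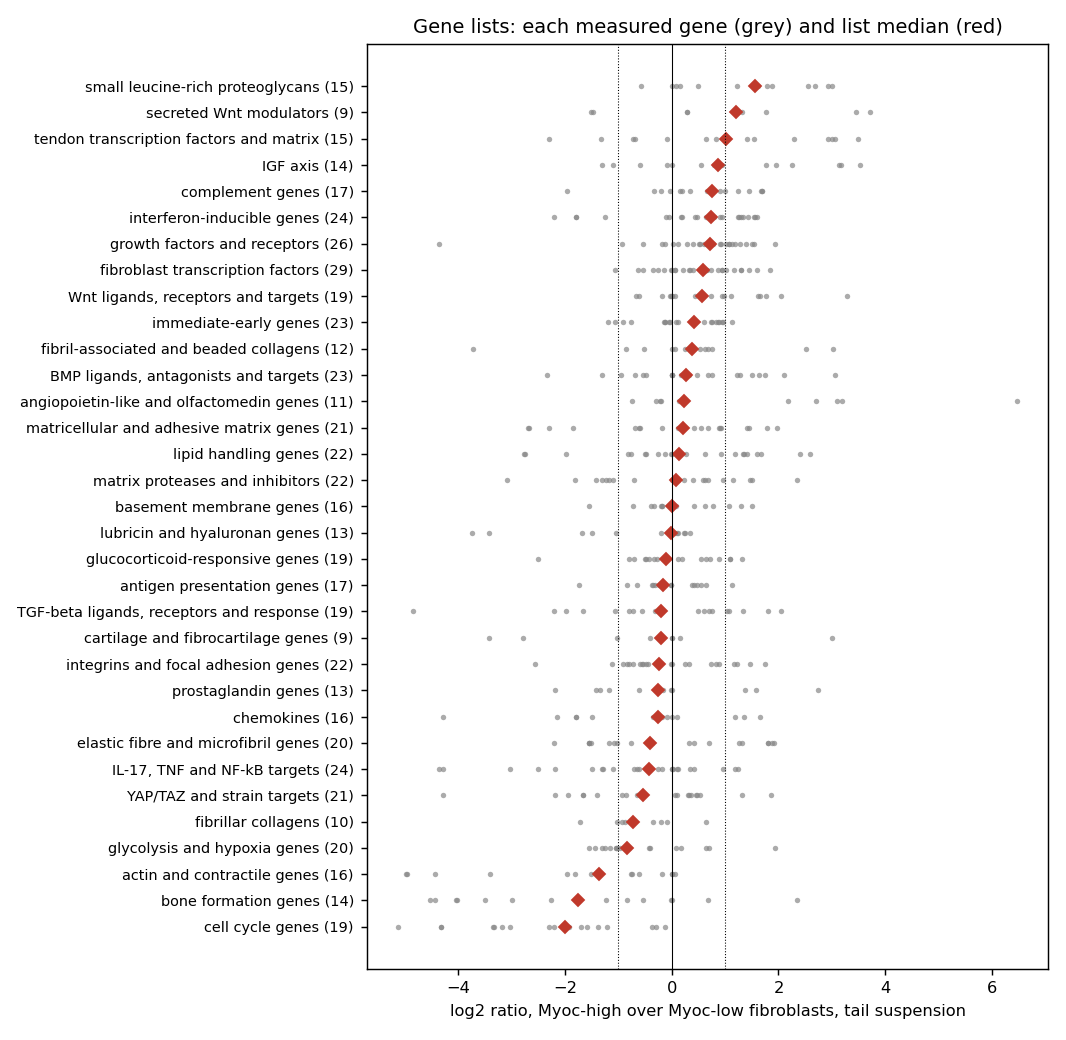
Log2 ratio of members over Myoc-low fibroblasts in the tail suspension library for each measured gene (grey) of 33 lists, with the list median in red, the number of measured genes in brackets and dotted lines at 2-fold. Small leucine-rich proteoglycans have the highest median (1.56) and cell cycle genes the lowest (-2.01), and genes without a UMI in members are drawn at a bound of 3 UMIs, never across 0.

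Between the libraries the members can be compared only with 3 non-tail suspension cells. Of 3151 genes with at least 20 UMIs, 375 (11.9%) were at least 2-fold higher with suspension and 340 (10.8%) lower. To have more cells, all fibroblasts with at least 0.1% Myoc were compared as well, 648 against 98, a comparison added after the 3 cells were counted. There 948 of 11078 genes (8.56%) were higher and 528 (4.77%) lower. Myoc itself was at 2515 CPM in members with suspension and 2007 without it (log2 ratio 0.33, -0.09 to 0.77), and at 3334 and 2670 in the wider set. Sfrp4 was at 866 and 335 CPM in members, the latter from 8 UMIs, but at 1371 and 1900 in the wider set, where it had a UMI in 55.6% and 83.7% of cells. Aspn was at 738 and 502 CPM and then 864 and 678, Fndc1 at 345 and 669 and then 751 and 676, and Cxcl14 at 1966 and 3387 and then 1927 and 3780. Of the label genes, Sfrp4 and Fndc1 thus pointed opposite ways in the 2 comparisons.

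Interferon-inducible and antigen presentation genes were lower with suspension in both comparisons. In members 8 of 9 measured interferon-inducible genes were at least 2-fold lower and none higher (median -2.50, all genes 0.00), and in the wider set 18 of 24 were lower and none higher (median -1.58, all genes 0.06). The antiviral protein Bst2 was at 71.0 and 502 CPM in members and 54.2 and 362 in the wider set, with a UMI in 29.8% and 89.8% of the latter's cells. Among antigen presentation genes 8 of 10 were lower in members (median -1.97) and 12 of 17 in the wider set (median -1.64). The class I heavy chain H2-D1 was at 1138 and 5185 CPM in members, with 124 UMIs in the 3 cells, and at 1279 and 4807 in the wider set. The class I heavy chain H2-K1 was at 308 and 1547 CPM and then 301 and 1287, and the light chain B2m at 890 and 2718 and then 897 and 2311. Sfrp2, another Wnt antagonist, was at 468 and 2342 CPM and then 552 and 1886. For each of these genes the wider set differed in the same direction as the members. The list median in members was -0.28 for interferon-inducible genes when cells were thinned to 2000 UMIs, and 0.00 at a Myoc threshold of 0.2%, which leaves 2 non-tail suspension cells.

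Other named genes were less alike in the 2 comparisons. Higher with suspension in members were Prg4 (3497 and 83.6 CPM), the calcium-binding S100a4 (1431 and 125), S100a6 (6483 and 1756) and S100a10 (1077 and 335), the metallothionein Mt2 (3859 and 627), the protease inhibitor Serpina3n (1230 and 209), Crip1 (3854 and 1213), Angptl7 (689 and 125) and the transcription factor Fos (2995 and 1296). For Angptl7 the 125 CPM is 3 UMIs of 1 cell, 35.1% of the tail suspension UMIs came from 1 cell, and as a mean over cells the log2 ratio was -0.12. Prg4 was also higher in Ptprc-positive cells, at 4861 and 696 CPM, and Angptl7 there was at 144 and 62.3. In the wider set S100a4 was at 1986 and 386 CPM and S100a6 at 6462 and 2588, while Fos was at 3407 and 3271. Igfbp5, Ccl7 and Mgp, a mineralisation inhibitor, were higher with suspension in members (1325 and 41.8, 2342 and 418, 1443 and 460 CPM) but lower in the wider set (908 and 2018, 1785 and 2356, 964 and 2960).

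Lower with suspension in members were also the transcription factor Junb (1394 and 5227 CPM), Phlda1 (213 and 1045), the interleukin-11 receptor Il11ra1 (310 and 1380), the matricellular protein Postn (473 and 1924), the cytokine signalling inhibitor Socs3 (390 and 1589), the chaperone Hspa8 (909 and 3262), the histone demethylase Kdm6b (260 and 1129) and Marcks (570 and 2133). At a Myoc threshold of 0.2%, which drops the deepest of the 3 non-tail suspension cells (15133 of 23914 UMIs), Junb (1.06), Postn (0.22), Socs3 (0.53) and Marcks (0.76) were higher with suspension instead. In the wider set Phlda1 (346 and 337 CPM) and Kdm6b (338 and 242) were no longer lower and Postn (1121 and 1224) hardly so. Of the genes that mark the members, Igfbp3 was at 3014 and 1422 CPM (1.08, 0.59 to 1.62) and Lpl at 2030 and 1714 (0.24, -0.21 to 0.73), and in the wider set at 910 and 283 and at 530 and 340.

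Summed marker levels of other cell types in the 83 members are given beside those of Ptprc-positive or Myoc-low cells. The 5 osteoclast markers summed to 987 CPM, against 358 in Ptprc-positive cells and 858 in Myoc-low fibroblasts, with Ocstamp and Dcstamp at 0. In the 3 non-tail suspension members the sum was 836 CPM, all of it from Ctsk, as the other 4 markers had no UMI. Adventitial fibroblast markers, among them Pi16, summed to 1550 against 680 in Myoc-low fibroblasts, and tenocyte markers to 511 against 224 with Mkx and Cilp2 at 0. Adipocyte markers were at 40.2 against 15.5 in Myoc-low fibroblasts and blood endothelial markers at 40.2 against 15.9, and the part of any of these in the results was not tested. Of 7 neutrophil markers 2, Csf3r and Cxcr2, had no UMI, and the 7 summed to 582 CPM against 52146 in Ptprc-positive cells, with a highest value of 117892 in 1 cell and a median of 422. Of 7 macrophage or monocyte markers all had a UMI, at 409 CPM against 9579. Skeletal muscle markers summed to 7.10 CPM, Schwann cell markers to 37.9 with Sox10 and Cdh19 at 0, and osteoblast markers to 66.3 with Sp7 and Bglap at 0. Haemoglobin Hbb-bs was at 596 CPM, 277 in Ptprc-positive cells, and 59.9% of its member UMIs came from 1 cell. A doublet caller marked 4 of the 83 and 0 of the 3 members. It marked 3.40% and 1.21% of kept cells in the libraries, below the expected 12.4% and 9.14%, so doublets may remain. The libraries shared 47 barcode sequences, none of a member.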

How the data were processed

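Single-cell RNA was measured in 2 libraries. The authors deposited UMI counts as whole numbers, and the submitters' processing notes list Cell Ranger (version 5.0.1) and the build GRCm38, with no role given. Whether libraries were brought to equal depth is not given in the sources used here. Members were taken by the rule, and counts were summed per library and group as CPM. Ratios carry exact conditional binomial intervals, shares Clopper-Pearson and CPM Poisson intervals at 95%, and a gene at 0 was set to a floor of 3 UMIs per group. A gene was measured with 20 UMIs over both groups compared, or 40 between the sets of members, and 2-fold refers to the ratio itself, not its interval. Of 32285 gene IDs, 32158 matched GENCODE on GRCm38.

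The members and lists were chosen with earlier results of these data known. Genes were named by size: between libraries the 12 each way with 100 UMIs whose interval bound lies farthest from 0 and whose direction was kept by thinned cells and by median-of-ratios scaling; against Myoc-low fibroblasts the 15 higher and 10 lower by the smaller ratio of both libraries, with 50 UMIs; all with 50 CPM in 10% of cells. Mitochondrial, ribosomal, haemoglobin, predicted and other-class marker genes were not eligible. Label genes, rule genes and examples of each list were added; 1 gene named by the rule is not reported here. The sets of members, their genes, and the genes above all 4 other groups were chosen after values were seen. Alternatives were other scalings, filters, thinning, Myoc thresholds and doublet removal with Scrublet (scanpy 1.11.5). On simulated counts for members over Myoc-low fibroblasts (12256 genes), 99.5% of 200 changed genes were called in the right direction, and intervals held the true ratio for 97.3% of genes. The changed genes had at least 20 expected member UMIs and true changes larger than 2-fold. Counts were drawn without differences between cells. The simulation therefore does not cover genes with few UMIs or genes carried by a few members, such as Angptl7. With 1 library a group no test was made.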

Additional observations from a re-analysis of the deposited data

How the results depend on the processing

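No paired analysis was possible because each group is 1 library. The member share with suspension, 0.573%, was 0.235% at a Myoc threshold of 0.2% and 0.870% at 0.05%, against 0.0183% and 0.0274% without suspension. Thinned to 1000 UMIs, Aspn was in 39.7% and Fndc1 in 23.5% of members, and thinned to 2000 with at least 2 UMIs required, in 35.7% and 16.1%. At 1000 UMIs with 2 required the Fndc1 share was 2.94% (0.358 to 10.2), against 1.91% in Myoc-low fibroblasts.

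Against Myoc-low fibroblasts the 336 higher and 78 lower genes became 206 and 78 with at least 100 UMIs, 258 and 36 at a Myoc threshold of 0.2%, and 63 and 20 in cells thinned to 2000 UMIs. In the tail suspension library alone there were 1340 higher and 1165 lower genes, 1343 and 1195 with members of at least 2000 UMIs, and 1342 and 1168 with at least 3 Myoc UMIs; these 3 settings, and all fibroblasts with at least 0.1% Myoc below, were chosen after seeing the data. Of the 336 higher genes, 196 stayed higher against all other fibroblasts. Against these, Fndc1 (-0.27), Fmod (-0.84) and Comp (-2.01) turned lower, as did the medians of fibril-associated collagens (-0.10), matricellular (-0.40), angiopoietin-like and olfactomedin (-0.07) and tendon genes (-0.84) and matrix proteases (-0.13). Antigen presentation (0.11) and basement membrane genes (0.15) turned higher. Lists near 0 changed sign elsewhere: basement membrane genes with median-of-ratios scaling (-0.05) and thinning (-0.04), glucocorticoid-responsive genes (0.25) and matrix proteases (-0.07) at a Myoc threshold of 0.2%, and lubricin genes (0.00) with doublet calls removed. The causes were not tested.

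Between libraries the 375 higher and 340 lower genes became 46 and 146 in thinned cells, 147 and 188 at a Myoc threshold of 0.2%, 115 and 52 with at least 100 UMIs, and 948 and 528 in all fibroblasts with at least 0.1% Myoc; as means over cells 695 were higher. At a Myoc threshold of 0.2%, which leaves 2 of the 3 non-tail suspension cells, immediate-early genes (median 0.89), Junb (1.06), Postn (0.22), Socs3 (0.53) and Marcks (0.76) turned higher with suspension. In all fibroblasts with at least 0.1% Myoc, immediate-early genes (0.05), Phlda1 (0.04), Kdm6b (0.48) and Fndc1 (0.15) turned higher, and Sfrp4 (-0.47), Igfbp5 (-1.15), Ccl7 (-0.40) and Mgp (-1.62) lower. As a mean over cells Angptl7 was at -0.12 and Sfrp4 at -0.69; Sfrp4 was at -0.00 at a Myoc threshold of 0.2%. The antigen presentation median ran from -2.19 to -1.21 over the settings; the interferon-inducible median was -0.28 in thinned cells and 0.00 at a Myoc threshold of 0.2%, and -2.57 to -1.58 in the others. The 3 non-tail suspension cells and the low depth of many members limit all of these values.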
